A study of Rattus norvegicus with 3 samples.

Results

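The genes described here are 10 members of the Toll-like receptor system: 6 receptors (Tlr1, Tlr2, Tlr3, Tlr4, Tlr7 and Tlr9), the lipopolysaccharide co-receptors Cd14 and Ly96, and the adaptors Myd88 and Ticam1. They were chosen by gene symbol from the 18425 genes of the deposited table, and all 10 were found (NCBI gene IDs in the same order 305354, 310553, 364594, 29260, 317468, 338457, 60350, 448830, 301059 and 363328). The libraries come from wild-type Sprague-Dawley rat retinas that received 1 µl into the vitreous at postnatal day 1 (P1) and were dissected at P4. One library came from eyes given citrate buffer at pH 4.5, one from eyes given saline, and one from eyes given 10 µg of streptozotocin (STZ), a DNA-alkylating glucosamine-nitrosourea. STZ was dissolved in citrate buffer, so buffer is its vehicle control and saline a second control. There was 1 library per condition, and the number of retinas in each is not given in the sources used here, so no difference below has a replicate check or a p-value. In the study's injections STZ and buffer went into opposite eyes of an animal, so these libraries may share animals.

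Toll-like receptors are membrane proteins that bind microbial molecules and products of dying cells. Tlr1, Tlr2 and Tlr4 sit at the cell surface, where Tlr2 pairs with Tlr1 or Tlr6 on lipoproteins and Tlr4 works with Cd14 and Ly96 (MD-2) on lipopolysaccharide. Tlr3, Tlr7 and Tlr9 sit in endosomes and bind double-stranded RNA, single-stranded RNA and unmethylated CpG DNA. All receptors of this group except Tlr3 signal through the adaptor Myd88 to NF-kB, while Tlr3 and endosomal Tlr4 use Ticam1 (TRIF) to reach interferon genes. In nervous tissue the receptors are best known in microglia, the resident macrophages, and some are also made by astrocytes, Müller glia and neurons.

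The estimated read counts came to 21992702 for the buffer library, 21977843 for saline and 22031249 for STZ. The members together held 200, 235 and 385 of these reads, or 9.09, 10.7 and 17.5 CPM, the count scaled to a common library size. Each gene therefore rests on few reads, and the counting error is wide. Markers of the neonatal retina such as Pax6 and Crx summed over 10 genes to 65112, 62521 and 64337 reads, so the tissue label held in every library. The libraries were not alike in other tissue markers. In the same order of buffer, saline and STZ, which is kept below, lens crystallins summed to 268, 704 and 4707 reads and markers of pigment and ciliary epithelium to 2555, 9475 and 2626. The part of these differences in the results below was not tested.

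All 10 members had low levels. In TPM, a transcript level scaled by length so that genes can be set side by side, they lay between 0.24 and 2.49 in buffer, between 0.18 and 3.15 in saline and between 0.38 and 3.31 in STZ. Ly96, the small secreted protein that holds lipid A beside Tlr4, had the highest TPM in every library. In buffer it was followed by Myd88 at 1.66, Tlr2 at 1.25, Tlr7 at 0.96, Cd14 at 0.77 and Tlr3 at 0.76. Ticam1, Tlr4, Tlr1 and Tlr9 had TPM of 0.29, 0.26, 0.24 and 0.24. Every gene in this order had a 95% counting interval (exact Poisson) that overlapped that of the next gene. In STZ there was a step in the order, since the interval of Tlr3 (1.17 to 2.0) lay above that of Tlr9 (0.314 to 0.838), with Ly96, Cd14, Myd88, Tlr2 and Tlr7 above Tlr3 and Ticam1, Tlr4 and Tlr1 below Tlr9. In saline, Cd14 stood second after Ly96 at 1.98 and Tlr9 was lowest.

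**Figure D1:**
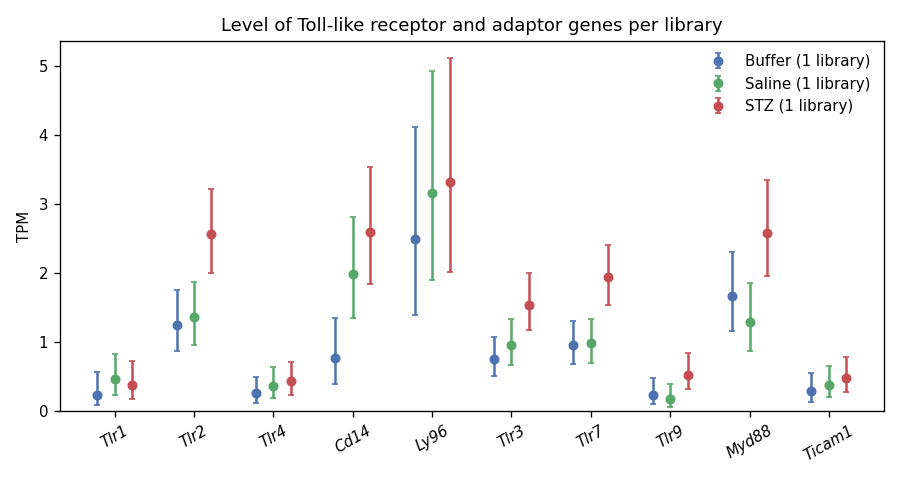
TPM of each of the 10 genes (vertical axis) in the buffer, saline and STZ libraries, 1 library each; bars are 95% exact Poisson intervals of the read count and cover counting error only. Tlr2, Tlr3, Tlr7, Tlr9 and Myd88 were highest in STZ with both controls near each other, whereas the saline point of Cd14 (1.98) lay nearer to STZ (2.59) than to buffer (0.77).

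The first question was which of these genes differed between STZ and its vehicle. Folds are the quotient of FPKM + 1 in one library and FPKM + 1 in the other, where FPKM is the read level scaled by gene length and depth. The limits are those of the published methods. Their log2 is 0.62 and -0.62, so that a gene is called higher when its FPKM + 1 is more than 54% above that of the other library and lower when it is more than 35% below. By this rule 1 of the 10 genes, Cd14, was higher in STZ than in buffer, with a fold of 1.68, and 0 were lower. Across all genes, 2.25% were called higher and 1.04% lower in this comparison. Against saline, 0 of the 10 were called higher, where 2.04% of all genes were, and 0 lower, where 1.75% were. Between the controls the members also had no call, against 1% of all genes called higher and 0.429% lower. All 10 folds against buffer and 9 of the 10 against saline were above 1. The median log2 fold of the members was 0.29 against buffer and 0.21 against saline, where the median over all genes was 0.020 and 0.000. In saline against buffer it was 0.07, with 0.012 over all genes. Each pair of comparisons shares a library (STZ, buffer or saline), so they are not separate evidence.

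The added 1 holds down the fold of genes with an FPKM near or below 1, and the members had FPKM of 0.12 to 1.27 in buffer. With 0.1 added instead, 5 members passed the upper limit against buffer (Cd14, Tlr2, Tlr3, Tlr7 and Tlr9, where 7.77% of all genes were) and 4 against saline (Myd88, Tlr2, Tlr7 and Tlr9, where 6.87% were). A second measure, the count ratio, divides a gene's share of all reads in one library by its share in another and adds nothing to the counts, and its exact Clopper-Pearson 95% interval shows the counting error. This interval compares the libraries, not the conditions. It lay above 1 for 5 of the 10 genes in STZ against buffer (Tlr2, Tlr3, Tlr7, Myd88 and Cd14). Over all genes 21.7% had such an interval, and 15.9% of the 2333 genes with a mean count in the members' range of 8.53 to 54. Against saline it lay above 1 for 5 members as well, with Tlr9 in place of Cd14, where 22.1% of all genes and 13% of those in the range did. In saline against buffer it lay above 1 for Cd14 only among the members, where the shares were 13.3% and 10.3%. No member had an interval below 1 in any of the 3 comparisons. The median count ratio of the members was 1.84 against buffer and 1.42 against saline, and 1.13 and 0.998 over the genes in the same range of counts.

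**Figure D2:**
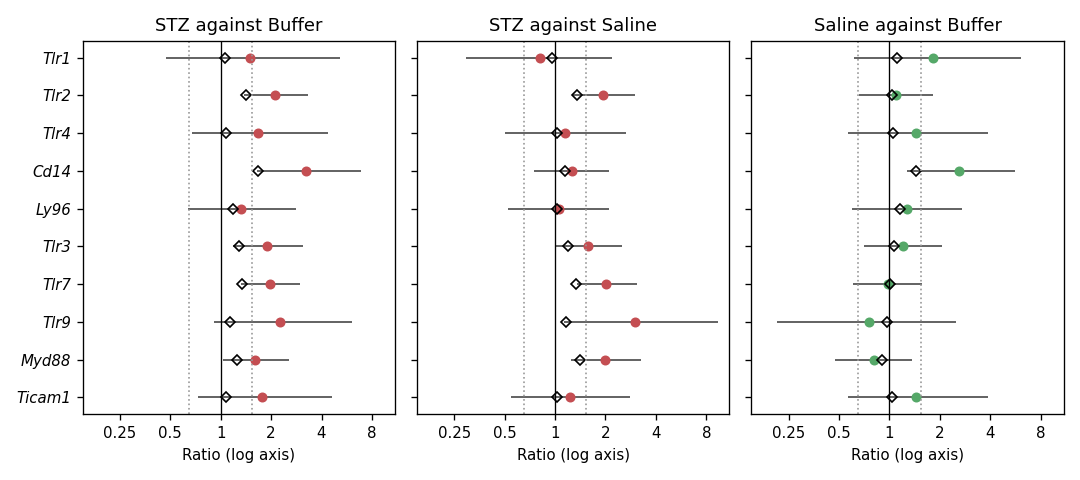
Count ratio of each gene (filled points, with 95% counting intervals as lines) and fold of (FPKM + 1) (open diamonds) for STZ over each control and for saline over buffer, on log axes; dotted lines mark the limits of the fold (log2 of -0.62 and 0.62). Tlr2, Tlr3, Tlr7 and Myd88 had intervals above 1 against both controls, and Cd14 against buffer in both the STZ and the saline library.

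For the 4 genes whose intervals lay above 1 against both controls, the 250 bases before the transcription start are shown. Their proximal promoters can be compared by letters. These genes were picked by their values, and both comparisons share the STZ library. The share of all genes with intervals above 1 against both controls was not computed, and shared regulation of these genes was not tested. The sequences are from RefSeq, build GRCr8, which matched 8 of the 10 members. Tlr2 is at chr2:171504558-171504807 on the minus strand, Tlr3 at chr16:53554666-53554915 on the plus strand, Tlr7 at chrX:30644176-30644425 on the plus strand and Myd88 at chr8:127956231-127956480 on the minus strand. Each is written 5′ to 3′ along the gene, and capitals mark every match on either strand to 1 of the motifs searched.
Tlr2: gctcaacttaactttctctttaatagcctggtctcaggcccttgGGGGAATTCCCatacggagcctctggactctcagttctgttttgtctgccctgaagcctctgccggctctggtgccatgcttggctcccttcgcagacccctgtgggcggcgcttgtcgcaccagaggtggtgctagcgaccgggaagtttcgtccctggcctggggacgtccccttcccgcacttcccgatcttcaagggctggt
Tlr3: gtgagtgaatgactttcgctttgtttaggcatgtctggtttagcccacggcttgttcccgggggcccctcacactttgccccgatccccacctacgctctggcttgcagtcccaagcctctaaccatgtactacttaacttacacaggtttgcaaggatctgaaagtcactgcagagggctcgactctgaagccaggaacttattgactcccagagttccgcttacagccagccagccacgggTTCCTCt
Tlr7: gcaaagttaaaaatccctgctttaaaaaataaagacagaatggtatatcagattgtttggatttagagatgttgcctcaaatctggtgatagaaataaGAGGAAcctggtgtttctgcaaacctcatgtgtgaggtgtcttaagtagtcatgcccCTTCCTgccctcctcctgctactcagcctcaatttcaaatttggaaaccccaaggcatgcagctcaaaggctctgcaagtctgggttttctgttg
Myd88: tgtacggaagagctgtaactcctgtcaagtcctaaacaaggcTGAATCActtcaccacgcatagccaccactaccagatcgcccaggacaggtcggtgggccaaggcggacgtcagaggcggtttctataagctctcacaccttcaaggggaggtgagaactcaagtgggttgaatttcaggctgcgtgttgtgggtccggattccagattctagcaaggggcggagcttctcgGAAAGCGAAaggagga
The motifs were GAGGAA for PU.1 (the product of Spi1, a factor of myeloid cells), AGGAAG for Ets factors, GGGANTTTC for NF-kB, GAAANNGAA for the interferon response, TGANTCA for AP-1, and TATAAA. The NF-kB consensus was added after the sequences had been seen. The PU.1 and Ets letters overlap each other by their shared AGGAA. No single motif was held by these 4 windows in common. Tlr7 held the PU.1 and the Ets letters, Tlr3 held the PU.1 letters just before its start, Tlr2 held an NF-kB consensus match, and Myd88 held the AP-1 and interferon response letters. Of the 8 members with a window, 5 held the PU.1 letters (Tlr3, Tlr4, Tlr7, Tlr9 and Cd14), against 23.3% of 33469 promoters in the table, and 5 held the Ets letters, against 29.5%. The NF-kB consensus was in 1 of 8 and in 3.54% of all promoters. The AP-1 letters with their open middle base were in 2 (Tlr9 and Myd88) and in 6.34%. The interferon response letters were in 1 and in 8.12%, TATAAA in 1 (Tlr1) and in 12.9%, and GGGANTTTC in 0 and in 0.953%. These matches describe letters and are not measured binding.

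Among the surface receptors, Tlr2, which binds bacterial lipoproteins, had 34, 37 and 72 reads. The controls were close to each other, with a count ratio of 1.09 (95% counting interval 0.665 to 1.79), and STZ stood above both. Its count ratio was 2.11 against buffer (1.39 to 3.28) and 1.94 against saline (1.29 to 2.97), while its folds of 1.41 and 1.36 stayed under the limit. Tlr4, the receptor for lipopolysaccharide, had 9, 13 and 15 reads. Its ratio of 1.66 against buffer had an interval of 0.682 to 4.31, so a difference of this size was not detectable at this depth. Tlr1, a partner of Tlr2, had 5.6, 11 and 9 reads and no order between saline and STZ that exceeded counting error, with a ratio of 0.816 (0.299 to 2.17). The read count of Tlr1 in buffer is fractional, as is that of its neighbour Tlr6. Tlr1 and Tlr6 are close copies that share sequence, so the estimation could have divided reads between them and both values are uncertain. The authors' methods, however, state that reads with several locations were discarded. How the fractions arose is not given in the sources used here. Tlr6, the other partner of Tlr2, had 97.4, 92 and 83 reads, a count ratio of 0.854 against buffer (0.629 to 1.16).

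Of the co-receptors of Tlr4, Cd14 was high in the saline library as well. Cd14, the anchored protein that passes lipopolysaccharide to Tlr4 and Ly96, had 12, 31 and 39 reads. Saline and STZ were thus both high and buffer alone was low. The count ratio was 3.24 in STZ against buffer (1.66 to 6.81) and 2.59 in saline against buffer (1.29 to 5.53), but 1.26 in STZ against saline (0.763 to 2.08). With the mean FPKM of both controls in place of buffer, Cd14 fell short of the limit. The call of Cd14 therefore rested on the buffer library. Markers of border macrophages and monocytes were also lowest in buffer, with sums of 30, 128 and 172 reads over 7 genes. Cd68, which microglia also express, had 20, 41 and 107 of these reads, and without it, a choice made after seeing the data, the sums were 10, 87 and 65. Mrc1 had 4, 43 and 41 reads, Lyve1 6, 23 and 14, Cd163 0, 14 and 1 and Pf4 0, 5 and 7, and Ly6c and Clec4e were also at 0 in buffer after rounding. These genes apart from Cd68 and Pf4 were thus not higher in STZ than in saline by more than 1 read. The part of these cells in the Cd14 values was not tested. Ly96 had 15, 19 and 20 reads. Its ratio was 1.33 against buffer (0.648 to 2.79) and 1.05 against saline (0.532 to 2.08), within counting error in both.

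The endosomal receptors Tlr7 and Tlr3 were higher in STZ than in both controls beyond counting error. Tlr7, which binds single-stranded RNA, had 41, 40 and 81 reads. The controls were nearly equal, and the ratio was 1.97 against buffer (1.34 to 2.95) and 2.02 against saline (1.37 to 3.03). Tlr3, which binds double-stranded RNA, had 30, 36 and 57 reads, with saline between buffer and STZ. Its ratio was 1.9 against buffer (1.2 to 3.06) and 1.58 against saline, where the lower bound of 1.02 was close to 1. Tlr9, the receptor for CpG DNA, had only 8, 6 and 18 reads. Its ratio against saline was 2.99 (1.14 to 9.21) and against buffer 2.25 with an interval of 0.929 to 5.97 that held 1. Among 12796 genes whose mean count was 50 or more, Dnase2, Agtpbp1, Ephx4, Herc6 and Arhgap45 had the pair of log2 count ratios (STZ against buffer and saline against buffer) closest to that of Tlr7, at distances of 0.045 to 0.066. Dnase2, which encodes a lysosomal DNase, had 152, 145 and 294 reads. This likeness rests on 3 libraries. The counting intervals of the 2 ratios of Tlr7, 1.34 to 2.95 and 0.615 to 1.55, are far wider than these distances. Which genes rank nearest is therefore within counting error.

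Of the adaptors, Myd88, which links all receptors here except Tlr3 to the IRAK kinases, had 36, 29 and 58 reads. Saline was the lowest library for this gene, so its ratio was larger against saline, at 2.0 (1.26 to 3.23), than against buffer, at 1.61 (1.04 to 2.51). Ticam1, the adaptor of Tlr3, had 9, 13 and 16 reads. The interval of its ratio was 0.738 to 4.56 against buffer and 0.554 to 2.77 against saline, each of which holds 1.

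The summed reads of microglia markers, like those of the members, were higher in STZ than in both controls. The 15 markers, among them Aif1 (IBA1), Csf1r and Cx3cr1, summed to 1984, 2313 and 5158 reads, and none was at 0 in any library. Of the 15, the same 13 were called higher against each control and 0 lower. Over all genes 2.25% were called higher against buffer and 2.04% against saline. The share called higher against both was not computed. Spi1, which encodes PU.1, had 17, 27 and 75 reads. In whole retina, more microglia and more RNA of a gene per cell cannot be told apart. The sum of the markers was 2.6 times as high in STZ as in buffer, and that of the members 1.92 times. Against saline these values were 2.22 and 1.63. Read counts of each member were set against the marker sum with an exact conditional odds ratio. Tlr7 had 20.7, 17.3 and 15.7 reads per 1000 marker reads, and its ratio to the markers was 0.76 in STZ against buffer (0.514 to 1.14). For Tlr2 it was 0.815 (0.533 to 1.27), from 17.1, 16.0 and 14.0 reads per 1000. Tlr2, Tlr3, Tlr4, Tlr7, Tlr9 and Ticam1 differed from the marker sum by less than the counting error against both controls.

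Relative to the markers, 9 of the 10 members were below 1 in STZ against buffer, the exception being Cd14 at 1.25 (0.64 to 2.63), and 9 against saline, the exception being Tlr9 at 1.35 (0.511 to 4.15). The interval excluded 1 for Myd88 alone, at 0.62 (0.401 to 0.97), with 18.1, 12.5 and 11.2 reads per 1000 marker reads. In STZ against saline it excluded 1 for Tlr1 at 0.367 (0.134 to 0.976), Cd14 at 0.564 (0.342 to 0.938) and Ly96 at 0.472 (0.239 to 0.937). When C1qa, C1qb and C1qc were left out of the sum, 0 intervals excluded 1 in either comparison with STZ. Cd14 had 6.05, 13.4 and 7.56 reads per 1000 marker reads, and in saline against buffer its ratio to the markers was 2.22 (1.1 to 4.75). Neutrophil markers summed to 154, 199 and 258 reads over 7 genes. Lcn2 had 98, 139 and 143 of them. Csf3r, the receptor for granulocyte colony-stimulating factor, had 36, 43 and 74 reads and count ratios of 2.05 against buffer (1.36 to 3.15) and 1.72 against saline (1.16 to 2.56), both intervals above 1 as for Tlr2, Tlr3, Tlr7 and Myd88. Ngp, a granule protein, had 18, 9 and 32 reads and was called higher against saline with a fold of 1.82. Mpo had 0, 0 and 1 read. The part of these cells in the members' values was not tested. Of the lymphocyte markers, Cd8a had 1, 3 and 10 reads, whereas Cd4, which rat macrophages also carry, had 127, 165 and 197. Markers of Müller glia and astrocytes, which can also make these receptors, summed to 18578, 18801 and 17871 reads, and erythroid genes to 453, 587 and 337. The erythroid gene Hba-a1, with 9, 10 and 4 reads, was called lower against both controls, with folds of 0.624 and 0.577. Of the 8 glial genes, 1 was called higher and 1 lower against buffer, and 0 higher and 2 lower against saline. Clu, with 493, 696 and 982 reads, was the one called higher against buffer, with a fold of 1.92. Pax2, with 57, 53 and 10 reads, was called lower against both controls, with folds of 0.617 and 0.63. Gfap, with 338, 410 and 214 reads, was called lower against saline with a fold of 0.576, and had 0.682 against buffer. The abundant Rlbp1, Slc1a3 and Glul had folds of 0.787, 1.04 and 1.05 against buffer. Endothelial markers summed to 13806, 15147 and 10162 reads, most of them from Kdr. Without Kdr, a choice made after seeing the data, the sums were 657, 583 and 190. Cdh5, Cldn5 and Tie1 were called lower against both controls, with count ratios of 0.235, 0.196 and 0.247 against buffer.

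**Figure D3:**
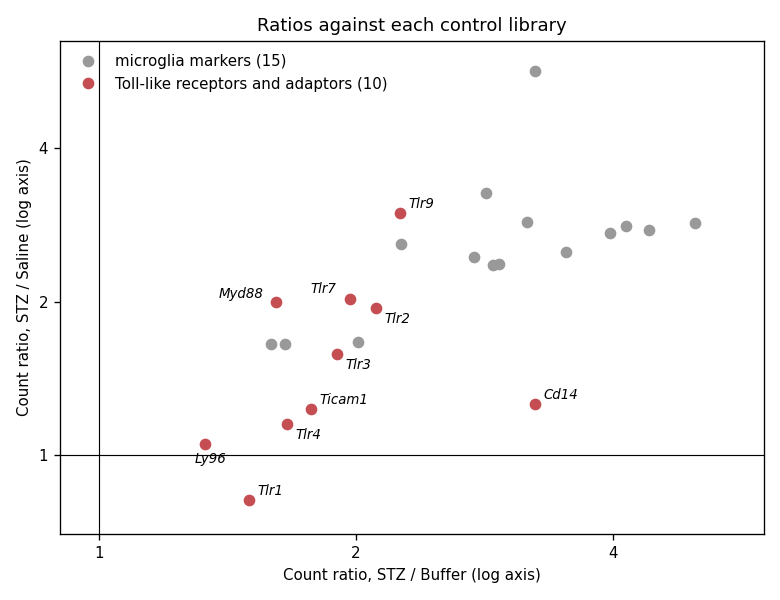
Count ratio of STZ to buffer (horizontal) against that of STZ to saline (vertical), both on log axes, for the 10 members (red, named) and the 15 microglia markers (grey); both axes share the STZ library. Tlr2, Tlr3, Tlr7 and Myd88 lie beside the markers with the lowest ratios against buffer (such as P2ry12 at 1.59 and Csf1r at 2.01), and Cd14 lies to the right (3.24) and low (1.26).

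The rest of the pathway was described with 9 lists of genes, of which 84 of 89 genes are in the table. Against buffer, 12 of the 84 were called higher and 0 lower, and against saline 6 higher and 0 lower. Over all genes the shares called higher were 2.25% and 2.04%. The median log2 fold of the 84 was 0.07 against buffer and 0.04 against saline. The list medians against buffer ran from -0.04 for the inhibitors to 0.34 for the endosomal receptors and their chaperones. Of the 12, 4 were in the receptor lists, 3 were transcription factors, 3 were endogenous ligands, 1 was an inhibitor and 1 a chemokine, and no kinase or further adaptor was among them. Tlr8, Tlr10, Tlr12, Tlr13, Irf5, Ikbkg, Tnfaip3, Cxcl10, Tnf, Il6, S100a8, Mpo, Ly6c and Clec4e fall outside the rule for named genes and were chosen after their values were seen. Gfap was chosen in the same way.

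Among the other surface receptors, Cd180, a relative of Tlr4 without a TIR domain, had 23, 23 and 99 reads and folds of 2.04 and 2.02 against buffer and saline. Ly86, its partner protein, had 14, 15 and 31 reads and was called higher against buffer with a fold of 1.63, while 1.52 against saline was under the limit. Itgb2, the common chain of the leukocyte integrins, had 46, 60 and 136 reads and folds of 1.82 and 1.61, and its partner Itgam had 66, 87 and 129 and folds of 1.41 and 1.21. Among endosomal genes, Unc93b1, which carries nucleic acid receptors to endosomes, had 108, 140 and 225 reads and a fold of 1.76 against buffer but 1.46 against saline. Hsp90b1 and Cnpy3, which fold the receptors, had folds of 1.35 and 0.968 against buffer. Tlr13, a receptor for bacterial ribosomal RNA, had 17, 25 and 59 reads, 3.46 times its share in buffer (1.99 to 6.34) and 2.35 times that in saline (1.45 to 3.92). Tlr8 had 0, 1 and 19 reads, at least 6.32-fold higher in STZ than in buffer when buffer is set to 3 counts (the lower bound of the exact counting interval, which also covers the error of the STZ count, was 4.66), and 19.0 times saline with a wide interval of 3.01 to 788. Their folds of 1.43 and 1.27 against buffer were under the threshold. Tlr5, for flagellin, had 5, 9 and 15 reads, and Tlr10 and Tlr12 had at most 4.

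The other adaptors and the kinases below the receptors had no call against either control. Of the other adaptors, Sarm1 had 1449, 1518 and 1489 reads with a fold of 1.02 against buffer, and Tirap, the bridging adaptor of Tlr2 and Tlr4, had 238, 272 and 233 reads with a fold of 0.956. Of the 15 kinases and ubiquitin ligases 0 passed in either direction against either control. Irak1 had a fold of 1.03, Map3k7 (TAK1) of 1.11, Chuk of 1.1 and Tab2 of 0.945 against buffer. Ikbkg (NEMO), the regulatory subunit of the IKK complex, had 1231, 1304 and 885 reads and a fold of 0.78.

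Of the 10 transcription factors, 3 were called higher against buffer. Irf8, a factor of myeloid cells, had 87, 101 and 233 reads and folds of 2.01 against buffer and 1.83 against saline. Irf5, which acts below Myd88, had 20, 30 and 67 reads and a fold of 1.78 against buffer but 1.49 against saline. Fos had 84, 78 and 171 reads and folds of 1.76 and 1.85. The abundant factors Irf3, Nfkb1 and Rela had folds of 1.1, 1.0 and 0.998 against buffer, and Jun of 0.78. Of the 11 inhibitors, Cd300a, an inhibitory receptor of myeloid cells, was alone in passing, with 5, 5 and 51 reads and a fold of 2.39 against each control. The induced inhibitors that act inside the cell did not pass. Tnfaip3 (A20) had 224, 243 and 253 reads, and Nfkbia, which encodes IkB-alpha, had 1089, 1158 and 894 with folds of 0.824 and 0.775. Otud7b, Tollip and Tnip1 had folds of 0.903, 0.969 and 0.887 against buffer.

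Cytokine genes were barely detected. The 13 cytokines and induced enzymes in the table summed to 29, 37 and 78 reads, and 1 of them had a mean of at least 10 counts. That gene was Ptgs2, which encodes cyclooxygenase-2, with 9, 13 and 19 reads and a ratio against buffer of 2.11 (0.909 to 5.29). Ccl3 had 3, 7 and 14 reads and was called higher against buffer with a fold of 1.75, but had 1.37 against saline. Il1a had 1, 1 and 15 reads, a count ratio of 15 against each control with an interval of 2.3 to 630. Tnf had 2, 1 and 3 reads, Il1b 5, 6 and 3, and Il6 0, 1 and 0. Cxcl10, an interferon-induced chemokine, had 0, 1 and 7. Differences from buffer in the genes other than Il1a, Ccl3 and Cxcl10, and from saline in those other than Il1a, were not detectable at this depth.

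**Figure D4:**
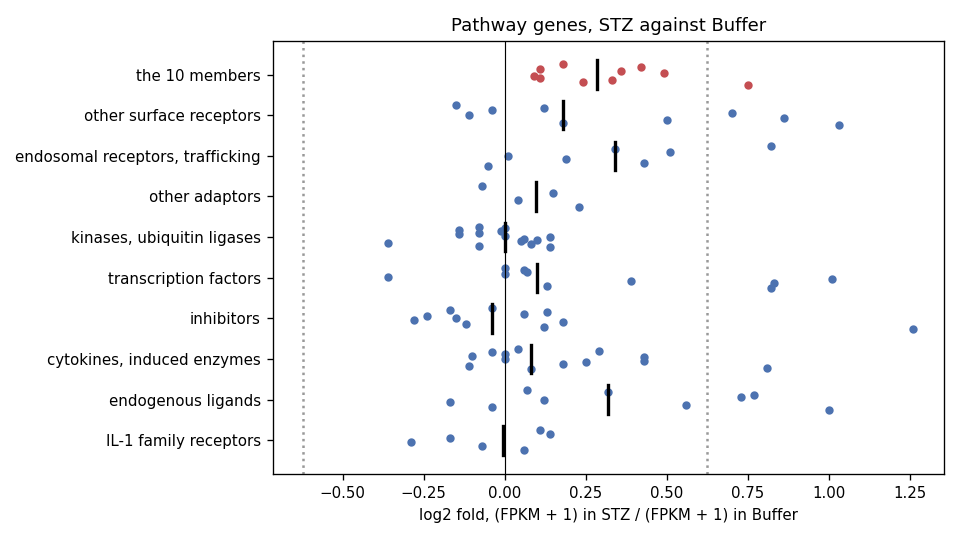
log2 fold of (FPKM + 1) in STZ against buffer for the 10 members (red) and for the genes of 9 pathway lists (blue), 1 point per gene and 1 row per list; black bars are list medians and dotted lines mark the limits of -0.62 and 0.62. All 10 members lie above 0, with Cd14 past the threshold, while kinases lie near 0 and Cd300a is the point farthest to the right.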

How the data were processed

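Whole-retina RNA was sequenced with a TruSeq kit on a HiSeq instrument, 1 library per condition. The authors checked reads with FastQC, trimmed them, mapped them with TopHat2 allowing 2 mismatches to rn6 (the build in the submitters' processing notes), discarded reads with several locations and computed FPKM. The authors deposited FPKM, TPM and an estimated count per gene and library. Of the deposited counts, 12.9% to 13.2% per library are fractional, and 1 member has such a count. Counts were rounded for intervals. FPKM are deposited to 2 decimals, which is coarse for the lowest members. Tables per library and of the series were equal (largest difference 0).

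Folds, intervals at the 95% level, bounds at 3 counts and odds ratios (scipy 1.17.1, Python 3.11.15) were computed here. Only the fold rule and the interval of the count ratio were tested on simulated data. The fold rule was tested on changed genes with a higher FPKM than the members, so its recovery at the members' levels was not tested. Intervals cover counting error only, as PCR copies cannot be told from separate molecules. With 1 library per condition no count model was fitted, and edgeR 4.0.16 and DESeq2 1.42.0 gave scaling factors only. The rule for named genes took all members and listed genes past the fold limits against both controls. It added up to 4 others per list with the highest mean count. The 5 genes nearest to Tlr7, the member with the highest mean count, were included too. Not every gene under this rule is named, for example within the lens and microglia lists. Members and 19 gene lists were chosen with earlier results of these data known. No gene coordinates of the build rn6 were used. Alternatives were another pseudocount, thresholds of 2 and 0.5, TPM, CPM computed here, scaling, a minimum mean of 10 counts, intervals and the control.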

Additional observations from a re-analysis of the deposited data

How the results depend on the processing

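With 1 library per condition leaving out replicates could not be done. No paired analysis was possible because each condition has 1 library. The number of members higher in STZ than in buffer, 1 by the formula of the methods, was 5 with a pseudocount of 0.1, 2 with TPM, 3 with CPM, 5 by the count interval, 0 with thresholds of 2 and 0.5 and 0 with the mean of both controls. It was 1 with TMM or DESeq2 scaling or a minimum mean of 10 counts. Against saline, 0 became 4 with a pseudocount of 0.1, 1 with TPM, 3 with CPM and 5 by the interval. In saline against buffer, 0 became 2 with a pseudocount of 0.1, 1 with TPM, 1 with CPM and 1 by the interval. Of all genes, a pseudocount of 0.1 called 7.77% higher in STZ against buffer and 6.87% against saline. By the interval the shares were 21.7%, 22.1% and, in saline against buffer, 13.3%. No share of all genes was computed for the other alternatives, or for the pseudocount in saline against buffer. Those counts of members therefore have no background. The number of members lower was 0 in all 3 comparisons under every alternative. By construction, a smaller pseudocount moves the folds of genes with low FPKM away from 1 in either direction. For the pathway genes, a pseudocount of 0.1 turned 12 higher and 0 lower into 26 and 3, where 7.77% of all genes were called higher. The share of all genes called lower at this setting was not computed. A minimum mean of 10 counts left 9 pathway genes higher and 0 lower. Without the C1q genes in the marker sum, the members whose interval relative to the markers excluded 1 went from 1 to 0 against buffer and from 3 to 0 against saline. Of the 150 recomputed folds of single members, 3 moved by over 1.5 times, all with a pseudocount of 0.1. Cd14 went from 1.68 to 2.92 in STZ against buffer and from 1.45 to 2.29 in saline against buffer, and Tlr9 from 1.17 to 1.95 in STZ against saline. The fold of Tlr7 in saline against buffer, 1.01, was 0.985 with CPM. The depth limits Tlr1, Tlr4, Tlr9 and Ticam1 most, with mean counts of 8.53 to 12.7.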

Other observations

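The summed reads of the interleukin receptors that also signal through Myd88 were lowest in STZ, but no interval was computed for the sum. Of the 6 genes, 3 had a fold above 1 against buffer. The counting interval lay below 1 for 0 of them against buffer and for 1 against saline. Over 6 genes (Il1r1, Il1rap, Il18r1, Il18rap, Il1rl1 and Il1rl2) the buffer, saline and STZ libraries held 135, 199 and 119 reads, and 0 were called against either control. Il1r1, the signaling receptor for interleukin-1, had 60, 109 and 49 reads, which puts STZ at 0.815 times buffer (counting interval 0.547 to 1.21) and 0.448 times saline (0.313 to 0.634). Saline was thus the library that stood apart. Il1rap, its accessory chain, had 64, 73 and 54 reads.

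Of the 9 endogenous ligands in the table, Bgn, which encodes the proteoglycan biglycan, had 77, 74 and 202 reads and folds of 2.0 against buffer and 2.04 against saline. Hmgb1, a nuclear protein released by dying cells, was abundant and had a fold of 0.888 against buffer, and Hspd1 and Tnc had folds of 1.08 and 1.25. S100a8 and S100a9, proteins of neutrophils and monocytes, were called higher against buffer with 0, 2 and 3 reads and 0, 5 and 4 reads, and were also called higher in saline than in buffer. Their counts are at or near the limit of 3 reads that a count of 0 allows.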
